A study of Sus scrofa with 599 samples.

Results

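The greater omentum (GOM) is the apron of visceral fat that hangs from the stomach, and it was compared here between pigs kept on a normal diet (NC) and pigs that gained weight on a high-fat diet (WG). Of the 599 samples of the series, 109 belong to this comparison: 9 NC and 45 WG RNA-seq libraries, and 9 NC and 46 WG Hi-C samples. They were chosen as the GOM columns of either diet in the deposited tables that match a deposited sample. All animals were female Bama pigs of 2 years that had not been fed the night before slaughter, and the WG pigs had received the high-fat diet for 22 weeks. For RNA-seq the tissue was whole fat, so each library averages over adipocytes, vessels, stroma and immune cells, and fewer cells of a type and less RNA per cell cannot be told apart. For Hi-C the paper describes lysing the upper, adipocyte-containing layer of the crosslinked fat. The A-B index and the RNA may therefore come from different mixes of cells. The p-values measure the spread between the samples of each diet.

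Omental fat stores triglyceride in adipocytes, secretes hormones such as leptin, and carries a mesothelial covering and lymphocyte clusters known as milky spots. When an animal gains weight, its adipocytes enlarge by taking up fatty acids and by making them from glucose (de novo lipogenesis), the collagen mesh around them is remodelled, and macrophages that take up lipid gather nearby. In Hi-C data, the A-B index of a genomic bin tells whether its contacts resemble those of open, gene-rich chromatin (compartment A, above 0) or of closed chromatin (compartment B, below 0).

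The RNA-seq libraries fell into sets that the diet labels do not name. Protein-coding genes (PCGs) took 74.8% to 79.97% of the TPM (a length-corrected share of the reads of a library) summed over the PCG, lncRNA and TUCP tables in 7 NC libraries, called low-share here (below 88%), and 95.6% and 96.0% in the other 2 NC libraries, called high-share. Of the WG libraries 42 were high-share and 3 low-share. PCG counts summed to 7835504 to 9933673 in the low-share NC, 15927523 and 17521417 in the high-share NC and 3337098 to 20910121 in the WG libraries. The 13 mitochondria-encoded genes took 12.1% to 37.4% of the PCG TPM in NC libraries, 13.5% to 28.97% in 18 WG libraries and 1.14% to 4.21% in the other 27. The labels give no reason for either division, so the 18 and the 27 are sets of samples and not groups of the study. WG replicate 35 stood apart, with the smallest count total, 11165 PCGs above 0.5 TPM and 4501 TPM for CD247 alone. Each comparison was therefore also made against each NC set, without WG replicate 35, and with only the 18 or only the 27 WG libraries; the difference between the 18 and the 27 was not tested. TPM is a share of a library, so PCG levels in the low-share NC libraries are lowered by the lncRNA and TUCP share. In 30.5% of the genes tested the median WG library lay above every NC library, and in 9.47% below. Fold changes come from scaled PCG counts.

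**Figure D1:**
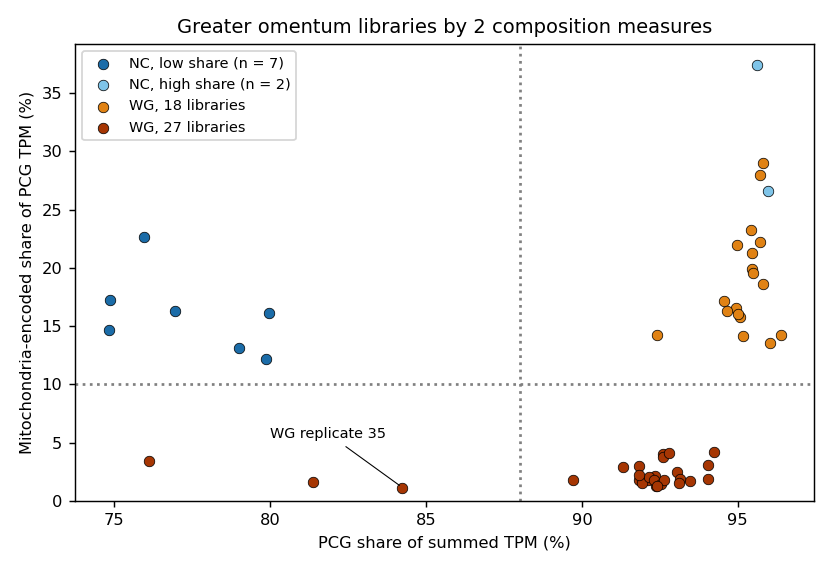
Each point is a GOM RNA-seq library, with the PCG share of summed TPM (%) on the x axis and the mitochondria-encoded share of PCG TPM (%) on the y axis; dotted lines mark 88% and 10%. The 9 NC and 18 of the WG libraries lie above 12%, and the other 27 WG libraries lie at or below 4.21%.

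The markers of the tissue were present: 8 adipocyte genes summed to a median of 8008.6 TPM in NC and 14679 TPM in WG. Of the 8, 3 (CIDEC, LEP and FABP4) were called higher and 0 lower with all libraries, and 1 and 0 with the 18. Over all genes tested 12.2% were called higher with all libraries. Genes of the acinar pancreas, a neighbour of the omentum, summed to 1.13 to 3.25 TPM in NC and 0.0 to 20.1 TPM in WG, and those of skeletal muscle to 1.69 to 8.83 TPM and 0.0 to 72.2 TPM. Erythrocyte genes moved with the WG sets, with a median of 617.8 TPM in NC, 760.3 TPM in the 18 and 3081 TPM in the 27, and 3 of 4 tested were called higher with all libraries. Their part in the results was not tested.

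Of 14251 PCGs tested, 1741 (12.2%) were higher and 2071 (14.5%) lower in WG, by edgeR's quasi-likelihood test with limits of 0.05 on the adjusted p and 1.5 on the fold change, which is what "called" means below. Against the low-share NC libraries 1332 (9.35%) were higher and 1780 (12.5%) lower. Against the 2 high-share NC libraries 1 (0.00702%) was higher and 32 (0.225%) lower. These counts rested on WG replicate 35, and without it 414 (2.91%) were higher and 374 (2.62%) lower. The 18 WG libraries gave 509 (3.57%) higher and 1312 (9.21%) lower against all NC libraries, and the 27 gave 2829 (19.9%) and 3620 (25.4%). Of the genes called with all libraries, 1 higher and 15 lower were called in the same direction against both NC sets, and 248 and 145 were so without WG replicate 35, while 1 gene was called in opposite directions against the sets. With the 18 WG libraries, 312 of the 1741 higher and 1088 of the 2071 lower genes were called again, and none was called the opposite way.

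Each list of genes below is given as the number of tested members called higher and lower, beside shares over all genes of 12.2% and 14.5% with all libraries, 3.57% and 9.21% with the 18 and 19.9% and 25.4% with the 27. The counts against each NC set follow, those against the high-share set without WG replicate 35. Counts with the 18 and with the 27 are given for some of the lists only. That set holds 2 NC libraries, so few or no calls there do not show that a change is absent. With every library kept, 3 lists had a member called against the high-share set, the collagens 1 higher and the adipokines and the B and plasma cell markers 1 lower each. Of the genes named below, 73 were called with all libraries. For these, calls against the low-share set kept every library, and those against the high-share set left out WG replicate 35. So read, 22 were called the same way against both NC sets and 45 against the low-share set alone. Those 45 included APLN, C3, CCL19, CD79A, CXCL2, FABP4, LOXL4, MMP11, MMP15, PLIN2, RCAN1, SFRP2, STC2, THRSP, TIE1 and UQCRC1. JCHAIN and VEGFA passed against the high-share set alone and NR1D1, PNPLA3, RXRA and SLC2A4 against neither. Since 42 of the 45 WG libraries were high-share, diet and share set cannot be told apart in genes called against the low-share set alone. Between the NC sets themselves, 5 genes were called higher and 94 lower in the high-share libraries.

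The gene called higher against both NC sets with every library kept was COL5A3 (chr2:68828197-68869914 in Sscrofa11.1), an alpha chain of type V collagen. Its level was 34.3 TPM in the lowest, 37.5 TPM in the median and 76.3 TPM in the highest NC library, and 44.1, 114.5 and 207.7 TPM in WG. The groups overlapped little, with 41 of 45 WG libraries above every NC library. The log2 fold change was 1.11 ± 0.18 (SE; adjusted p = 1.7e-06, edgeR). It was 1.00 ± 0.19 against the low-share and 1.56 ± 0.37 against the high-share NC set, and 0.93 ± 0.19 with the 18 WG libraries.

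LEP encodes leptin, the adipocyte hormone that reports fat stores to the brain. LEP measured 41.8, 75 and 93.1 TPM in the lowest, median and highest NC library and 53, 374.9 and 1098.5 TPM in WG, where 42 of 45 libraries lay above every NC library. Its log2 fold change was 2.26 ± 0.34 (adjusted p = 6.2e-07, edgeR), 2.19 ± 0.39 against the low-share set and 2.03 ± 0.36 with the 18. Against the high-share set it was 2.57 ± 0.73 (adjusted p = 0.081, edgeR, not called), and 2.61 ± 0.71 (adjusted p = 0.029) without WG replicate 35.

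Several other genes were called higher against both NC sets only without WG replicate 35, and all of the following also with the 18. ALDH1A3, which makes retinoic acid, had medians of 24.3 TPM in NC and 86 TPM in WG, a log2 fold change of 1.49 ± 0.21, and 44 of 45 WG libraries above every NC library. TXNRD1, a thioredoxin reductase of the antioxidant system, had medians of 67.1 and 212.7 TPM (1.30 ± 0.20). PDGFD, a platelet-derived growth factor, had medians of 15.5 and 44.4 TPM (1.27 ± 0.20). The tetraspanin TSPAN9 and GPAA1, part of the enzyme that attaches lipid anchors to proteins, had log2 fold changes of 1.01 ± 0.15 and 0.97 ± 0.15.

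**Figure D2:**
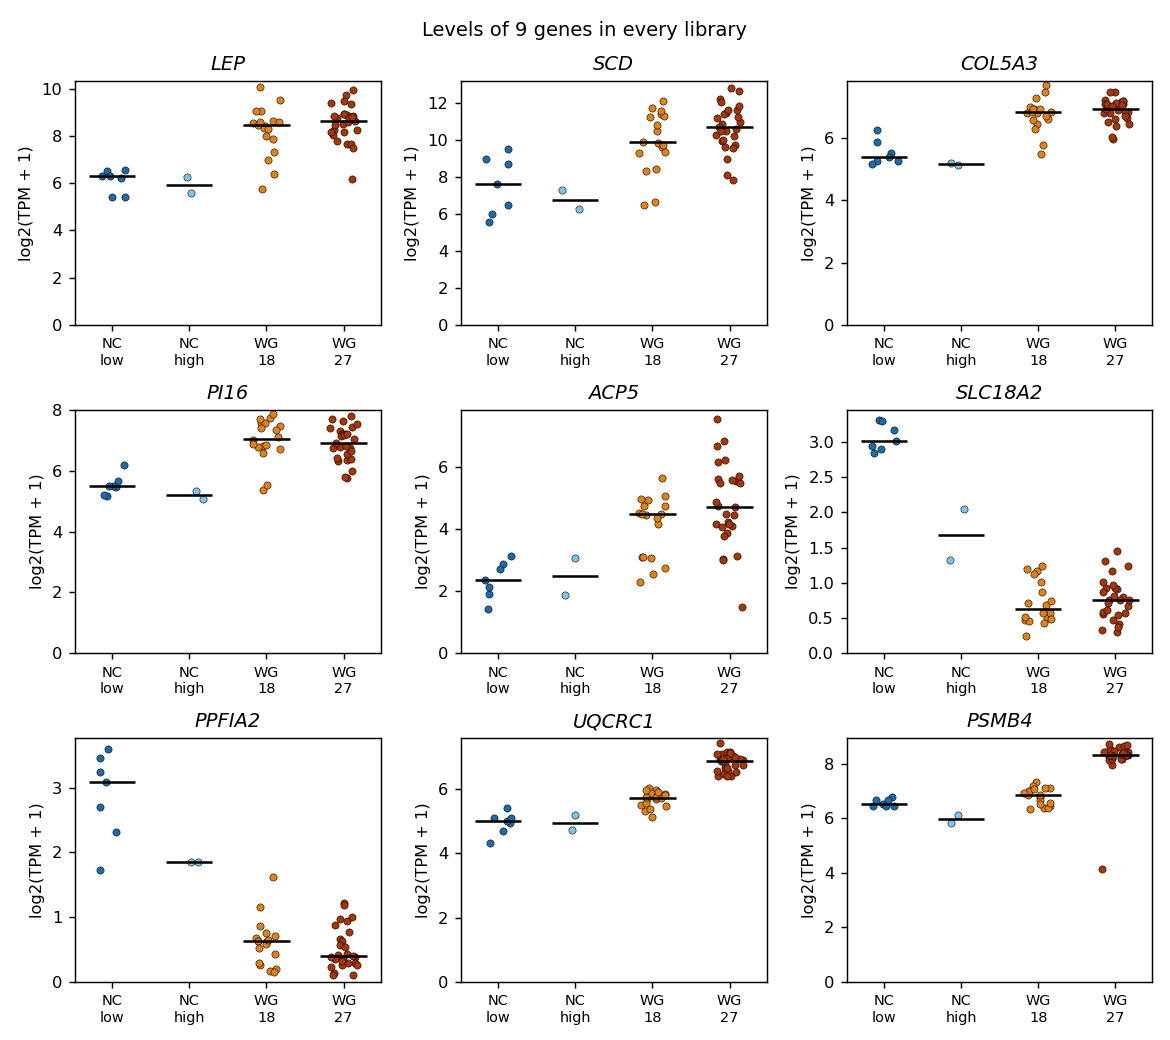
Each panel plots log2(TPM + 1) of a gene in every library, for the low-share NC (n = 7), high-share NC (n = 2), the 18 WG and the 27 WG libraries, with a bar at the median. LEP, SCD, COL5A3, PI16 and ACP5 have higher and SLC18A2 and PPFIA2 lower medians in both WG sets than in NC, while UQCRC1 and PSMB4 are highest in the 27.

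Of the 15 genes called lower against both NC sets with every library kept, 4 have a symbol in the tables, and 3 of these reached a mean of 5 TPM in a group. SLC18A2, the transporter that loads monoamines into vesicles, measured 1.5, 6.71 and 8.91 TPM in the lowest, median and highest NC library and 0.183, 0.648 and 1.74 TPM in WG. It lay below every NC library in 44 of 45 WG libraries, with a log2 fold change of -3.44 ± 0.22 (adjusted p = 5e-19, edgeR). It was -3.70 ± 0.21 against the low-share set and -1.84 ± 0.40 against the high-share set, whose libraries held 1.5 and 3.13 TPM. PPFIA2, a scaffold protein of the liprin family, had a median of 5.52 TPM in NC and 0.438 TPM in WG (-3.83 ± 0.29), and the groups did not overlap, with 2.32 TPM in the lowest NC and 2.08 TPM in the highest WG library. EAF2, a partner of the ELL elongation factors, had medians of 5.02 and 2.78 TPM (-1.10 ± 0.20). All 3 were called with the 18.

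Others were called lower against both sets without WG replicate 35. RPS20, of the small ribosomal subunit, had medians of 3039.0 and 495.7 TPM (-2.72 ± 0.24), an uncertain value since ribosomal protein genes share reads with near-identical copies. SLC6A20, an amino acid transporter, and PTPRD, a receptor tyrosine phosphatase, had -1.66 ± 0.25 and -1.31 ± 0.22, and were called with the 18. PARD3, a cell polarity protein, had -0.98 ± 0.16 and was not called with the 18 (-0.57 ± 0.13).

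Some genes called with all libraries were called against the low-share set and not against the high-share set. RAD54L, a DNA repair helicase, had log2 fold changes of -3.15 ± 0.21 and 0.26 ± 0.50, and the high-share NC libraries held 0.316 and 0.511 TPM beside a WG median of 0.504 TPM. KCNAB1, a potassium channel subunit, had -1.70 ± 0.22 and 0.17 ± 0.46. COX7A1, a subunit of cytochrome c oxidase, had -1.49 ± 0.32 and 1.34 ± 0.75. Their levels in the high-share NC libraries lay within the range of WG.

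**Figure D3:**
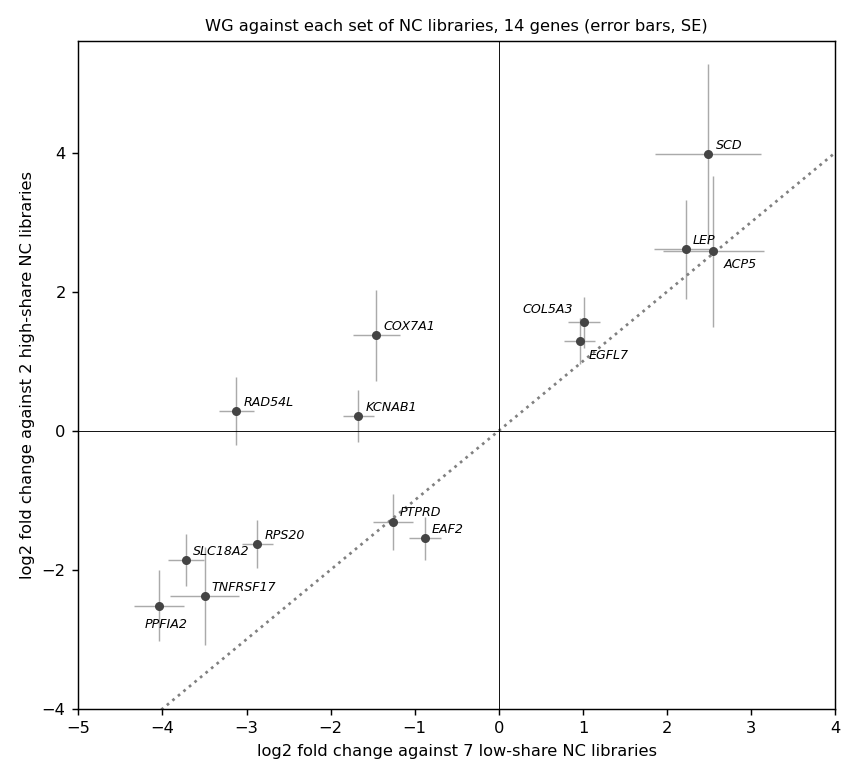
The log2 fold change of WG against the 7 low-share NC libraries (x axis) is plotted against that of WG against the 2 high-share NC libraries (y axis) for 14 genes, without WG replicate 35; bars are SE and the dotted line marks equal values. LEP, COL5A3 and SCD lie above 0 on both axes, and RAD54L, KCNAB1 and COX7A1 lie below 0 on the x axis and not on the y axis.

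Among the lipid lists, de novo lipogenesis had the most calls with the 18 WG libraries. Of its 19 tested members 9 higher and 0 lower were called with all libraries, with a median log2 fold change of 0.62 beside 0.00 over all genes tested. With the 18 there were 6 higher and 0 lower (median 0.54 beside -0.03 over all genes), and with the 27 10 higher and 1 lower. By NC set there were 5 and 0 against the low-share set and 2 and 0 against the high-share set. SCD, the desaturase that makes oleate, measured 45.7, 152.0 and 729.6 TPM in the lowest, median and highest NC library and 89.3, 1420.6 and 7157.3 TPM in WG. It lay above every NC library in 36 of 45 WG libraries, with a log2 fold change of 2.69 ± 0.57 (adjusted p = 0.00023, edgeR) and 2.24 ± 0.60 with the 18. Against the low-share set it was 2.47 ± 0.63, and against the high-share set 3.98 ± 1.30 without WG replicate 35 (adjusted p = 0.053, edgeR, not called). THRSP, a regulator of lipogenic enzymes, had medians of 480.5 and 1795.5 TPM (1.51 ± 0.39, and 0.93 ± 0.35 with the 18). MID1IP1, which activates acetyl-CoA carboxylase, had medians of 26.9 and 50.7 TPM (1.05 ± 0.33). PNPLA3, a lipid droplet acyltransferase and lipase, had 0.75 ± 0.26, was called against neither NC set (0.60 ± 0.29 and, without WG replicate 35, 1.4 ± 0.54), and was not called without NC replicate 1 (0.65) or 10 (0.64). FASN, the fatty acid synthase, was not called (0.45 ± 0.41), with medians of 526.8 TPM in NC, 1555.5 TPM in the 18 and 720.8 TPM in the 27. ACLY, which supplies its acetyl-CoA, had 0.94 ± 0.40 (adjusted p = 0.052, edgeR, not called), and was called without NC replicate 2 (1.16), 5 (1.06) or 7 (1.11) or WG replicate 35 (0.97).

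The promoters of SCD and THRSP are shown because these genes had the largest rises of the lipogenesis list. Each run holds the 250 bases before and 50 bases from the RefSeq gene start in Sscrofa11.1, 5′ to 3′, at chr14:111461310-111461609 for SCD and chr9:12479663-12479962 for THRSP, both on the plus strand.
SCD: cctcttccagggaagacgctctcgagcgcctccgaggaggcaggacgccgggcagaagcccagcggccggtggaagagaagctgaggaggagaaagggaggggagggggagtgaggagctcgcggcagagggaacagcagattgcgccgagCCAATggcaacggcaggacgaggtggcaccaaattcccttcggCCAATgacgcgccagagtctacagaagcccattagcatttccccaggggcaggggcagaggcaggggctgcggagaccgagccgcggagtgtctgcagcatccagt
THRSP: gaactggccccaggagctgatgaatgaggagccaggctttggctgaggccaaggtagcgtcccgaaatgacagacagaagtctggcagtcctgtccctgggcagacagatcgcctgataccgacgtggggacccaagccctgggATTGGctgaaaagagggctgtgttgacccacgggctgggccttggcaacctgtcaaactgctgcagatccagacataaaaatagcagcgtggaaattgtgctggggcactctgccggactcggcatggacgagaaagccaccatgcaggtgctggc
Capitals mark the NF-Y box CCAAT on either strand, found 2 times in the SCD and 1 time in the THRSP window, and in 4736 of 13521 promoters of this length. The E-box CACGTG (8.68% of promoters), the sterol regulatory element TCACNCCAC (0.976%) and the TATA box TATAAA (8.93%), read on both strands, were not among the letters of either window.

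Of 13 triglyceride synthesis genes 4 higher and 1 lower were called with all libraries, and 0 higher and 0 lower with the 18, with 2 and 1 against the low-share set and 0 and 0 against the high-share set. GPD1, which makes glycerol 3-phosphate, had medians of 52.6 TPM in NC, 84.9 TPM in the 18 and 223.5 TPM in the 27, with log2 fold changes of 1.22 ± 0.34 with all libraries and 0.19 ± 0.19 with the 18. LPIN1, a phosphatidate phosphatase, was the member called lower (-0.90 ± 0.22, and -0.38 ± 0.19 with the 18). Of 12 lipolysis genes 4 higher and 0 lower were called with all libraries and 1 higher and 0 lower with the 18, which was MGLL, the monoglyceride lipase, with 2 and 0 against the low-share set and 0 and 0 against the high-share set. G0S2, the inhibitor of adipose triglyceride lipase, had medians of 15.6, 37.1 and 179.2 TPM in NC, the 18 and the 27, and log2 fold changes of 2.29 ± 0.59 with all libraries, 0.25 ± 0.37 with the 18 and 2.87 ± 0.40 with the 27. The lipases PNPLA2 and LIPE were not called (-0.18 ± 0.36 and 0.16 ± 0.19).

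Of 9 lipid droplet genes 4 higher and 0 lower were called with all libraries, 4 and 0 against the low-share set and 1 and 0 against the high-share set, and 1 higher and 0 lower with the 18. That member was PLIN5, a coat protein of oxidative tissues (0.71 ± 0.22 with the 18), which with all libraries had 0.63 ± 0.20 and was not called without NC replicate 1 (0.56), 5 (0.54) or 9 (0.56). PLIN2, a coat protein of growing droplets, lay above every NC library in 41 of 45 WG libraries, with medians of 86.3 and 237.4 TPM and a log2 fold change of 1.51 ± 0.35, which was 0.50 ± 0.18 and under the fold limit with the 18. CIDEC, which fuses droplets, had 0.78 ± 0.25 with all libraries and 0.20 ± 0.20 (not called) with the 18. Of 15 fatty acid uptake genes 6 higher and 0 lower were called with all libraries, 7 and 0 against the low-share set and 1 and 0 against the high-share set, and 1 higher and 0 lower with the 18, which was ANGPTL4, a secreted inhibitor of lipoprotein lipase (0.96 ± 0.25 and 1.00 ± 0.27). FABP4, the adipocyte fatty acid carrier, had medians of 3846.9 and 9291.9 TPM (1.05 ± 0.26) and 0.41 ± 0.18 (not called) with the 18. LPL, lipoprotein lipase itself, had 0.00 ± 0.18.

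Of 15 adipokine genes 8 higher and 0 lower were called with all libraries, 6 and 0 against the low-share set and 1 and 1 against the high-share set. The member called lower against the high-share set was among the 6 called higher against the low-share set. With the 18 there were 4 higher and 0 lower, among them LEP, APLN and SFRP5. APLN, the vascular peptide apelin, had log2 fold changes of 1.07 ± 0.33 and 0.87 ± 0.25. ADIPOQ, adiponectin, was not called (0.09 ± 0.24), with medians of 1809.9 and 2264.2 TPM. Of 18 adipogenic transcription factors 3 higher and 1 lower were called with all libraries, 3 and 1 against the low-share set and 0 and 0 against the high-share set, and 1 higher and 0 lower with the 18, which was RXRA, a partner of nuclear receptors (0.73 ± 0.28 with all libraries and 0.64 ± 0.15 with the 18). RXRA was not called with all libraries after leaving out NC replicate 5 (0.69), 6 (0.69), 9 (0.70) or 10 (0.73) or WG replicate 35 (0.50). CEBPA, a driver of adipocyte differentiation, had 1.71 ± 0.44 with all libraries and 0.33 ± 0.22 (not called) with the 18, and PPARG, the main regulator of adipocyte identity, was under the fold limit (-0.42 ± 0.14). Of 18 insulin signalling genes 3 higher and 0 lower were called with all libraries, 2 and 0 against the low-share set and 0 and 0 against the high-share set, and 0 higher and 0 lower with the 18. SLC2A4, the insulin-responsive glucose transporter, had 0.76 ± 0.27, and 0.67 (not called) without NC replicate 9. INSR, the insulin receptor, was under the fold limit (-0.38 ± 0.10).

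Of 16 lipid-associated macrophage genes 8 higher and 0 lower were called with all libraries (median log2 fold change 0.62), 5 higher and 0 lower with the 18 (0.41) and 9 higher and 0 lower with the 27. By NC set there were 7 and 0 against the low-share set and 0 and 0 against the high-share set, where the median was 0.97. ACP5, the tartrate-resistant phosphatase of macrophages and osteoclasts, measured 1.72, 4.1 and 7.82 TPM in the lowest, median and highest NC library and 1.83, 21.5 and 188.0 TPM in WG, above every NC library in 36 of 45. Its log2 fold change was 2.53 ± 0.54 (adjusted p = 0.00028, edgeR) and 1.67 ± 0.37 with the 18. SPP1, osteopontin, had medians of 78.3 and 408.6 TPM (2.19 ± 0.57, and 1.33 ± 0.39 with the 18). APOE, a lipoprotein that carries lipid out of macrophages, had medians of 236.1 and 762.3 TPM (1.63 ± 0.35, and 0.93 ± 0.17 with the 18). ATP6V0D2, a subunit of the proton pump of lysosomes, was low in NC at a median of 0.18 TPM and had 2.43 TPM in WG (3.20 ± 0.71). TREM2, the lipid receptor of these cells, was not called with all libraries (0.28 ± 0.28), and was called with the 18 (0.69 ± 0.26) and without NC replicate 8 (0.75).

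Of 18 general macrophage markers 2 higher and 3 lower were called with all libraries, near the shares over all genes, 1 and 3 against the low-share set and 0 and 0 against the high-share set, and 0 higher and 4 lower with the 18. TIMD4, a receptor of resident macrophages, had medians of 12.9 and 4.76 TPM (-2.03 ± 0.33, and -1.53 ± 0.35 with the 18). C1QB, a chain of complement C1q, had -0.83 ± 0.21, and -0.56 (not called) without NC replicate 8. CD68 and CD163, used to mark macrophages, were not called (-0.47 ± 0.35 and 0.28 ± 0.28). Of 18 chemokines 2 higher and 3 lower were called with all libraries, 2 and 2 against the low-share set and 0 and 0 against the high-share set, and 1 higher and 3 lower with the 18. CCL19, which attracts lymphocytes and dendritic cells, was higher in both (1.23 ± 0.23 and 0.85 ± 0.19), and CXCL2, which attracts neutrophils, lower in both (-0.93 ± 0.22 and -0.92 ± 0.22). CCL2 and IL6, inflammatory signals known from obese fat, were not called (-0.13 ± 0.33 and 0.37 ± 0.29). Of 21 cytokine genes 2 higher and 3 lower were called with all libraries, 1 and 3 against the low-share set and 0 and 0 against the high-share set, and 2 higher and 4 lower with the 18, and IL1A, interleukin 1 alpha, was lower in both (-1.24 ± 0.28 and -1.28 ± 0.34), but was -1.53 ± 0.28 (called) against the low-share and 0.83 ± 0.62 (not called) against the high-share NC set. Of 19 T and NK cell markers 3 higher and 1 lower were called with all libraries, 1 and 1 against the low-share set and 0 and 0 against the high-share set. Of 6 MHC class II genes 1 higher and 0 lower were called, 1 and 0 against the low-share set and 0 and 0 against the high-share set.

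Of 9 B and plasma cell markers 0 higher and 5 lower were called with all libraries, 0 and 3 against the low-share set and 0 and 2 against the high-share set, and 0 higher and 4 lower with the 18. TNFRSF17, the plasma cell receptor BCMA, measured 0.0, 5.01 and 11.6 TPM in the lowest, median and highest NC library and 0.0, 0.527 and 1.82 TPM in WG. The NC library at 0 was the high-share replicate 10. Its log2 fold change was -3.32 ± 0.39 (adjusted p = 6.1e-10, edgeR), -3.52 ± 0.41 against the low-share set and -2.38 ± 0.70 against the high-share set without WG replicate 35. JCHAIN, the joining chain of secreted antibodies, had -1.96 ± 0.44, but NC replicate 6 held 2310.9 TPM beside an NC median of 102.9 TPM, and without it the log2 fold change was -0.95 and not called. CD79A, part of the B cell receptor, had -0.66 ± 0.19, and -0.80 ± 0.10 with the 18. Summed plasma cell markers had medians of 108.8 TPM in NC, 47.7 TPM in the 18 and 114.1 TPM in the 27.

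Of 11 complement genes 1 higher and 4 lower were called with all libraries, 0 and 2 against the low-share set and 0 and 0 against the high-share set, and 0 higher and 3 lower with the 18. C3, the central component, had medians of 457.8 and 236.0 TPM (-1.19 ± 0.31, and -0.88 ± 0.32 with the 18). Of 8 mesothelial genes 0 higher and 3 lower were called with all libraries, 0 and 3 against the low-share set and 0 and 0 against the high-share set, and 0 higher and 1 lower with the 18. The member called in both was PKHD1L1 (-1.16 ± 0.29 and -1.01 ± 0.32), while WT1, a transcription factor of the mesothelium, had -0.94 ± 0.25 and -0.41 ± 0.22 (not called). Of the 6 genes chosen to mark mesothelial cells 2 were measured under their names.

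Of 35 genes for fibrillar and type VI collagens and their cross-linking, 9 higher and 1 lower were called with all libraries (median 0.02), 10 higher and 1 lower with the 18 (0.26) and 9 higher and 7 lower with the 27 (-0.13). By NC set there were 7 and 1 against the low-share set and 3 and 0 against the high-share set. LOXL4, a lysyl oxidase that cross-links collagen, had medians of 3.8 and 15.1 TPM and lay above every NC library in 42 of 45 WG libraries (1.94 ± 0.37, and 1.82 ± 0.40 with the 18), but was not called against the high-share set. LOXL1, of the same family, had 1.12 ± 0.24 and 1.31 ± 0.20. COL5A2, another type V collagen chain, lay above every NC library in 44 of 45 WG libraries (1.20 ± 0.25, and 0.72 ± 0.13 with the 18). FN1, fibronectin, was the member called lower, with medians of 1105.5 and 462.1 TPM (-1.55 ± 0.33, and -1.16 ± 0.34 with the 18). COL1A1, the main type I collagen chain, was not called with all libraries (-0.09 ± 0.43) or with the 18 (0.78 ± 0.30) and was called lower with the 27 (-1.31 ± 0.26), with medians of 143.7 TPM in NC, 265.5 TPM in the 18 and 56.2 TPM in the 27.

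Of 20 matrix protease genes 6 higher and 0 lower were called with all libraries, 6 and 0 against the low-share set and 1 and 0 against the high-share set, and 6 higher and 0 lower with the 18. The metalloproteinases MMP23B, MMP11 and MMP15 were called in both, with log2 fold changes of 1.6 ± 0.36, 0.86 ± 0.16 and 0.77 ± 0.24 with all libraries. MMP23B alone of these was called against the high-share set. Of 13 progenitor and fibroblast markers 3 higher and 1 lower were called with all libraries, 2 and 1 against the low-share set and 1 and 0 against the high-share set, and 6 higher and 0 lower with the 18. With the 27 there were 3 higher and 3 lower, and a member called higher with the 18 was called lower with the 27. PI16, a marker of adventitial progenitors, measured 33, 43.8 and 73.1 TPM in the lowest, median and highest NC library and 40, 128.3 and 235.1 TPM in WG. Its log2 fold change was 1.26 ± 0.21, 1.16 ± 0.24 against the low-share set, 1.67 ± 0.45 against the high-share set without WG replicate 35 and 1.25 ± 0.23 with the 18, called in each. SFRP2, a WNT modulator secreted by fibroblasts, had 2.11 ± 0.36 with the 18 and 0.43 ± 0.30 (not called) with the 27.

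Of 22 endothelial and VEGF genes 4 higher and 1 lower were called with all libraries. By NC set there were 4 and 0 against the low-share set and 1 and 1 against the high-share set. With the 18 there were 6 higher and 1 lower, and with the 27 there were 4 higher and 7 lower. PLVAP and ROBO4 were called higher with the 18 and lower with the 27. EGFL7, a matrix protein made by endothelium, lay above every NC library in 43 of 45 WG libraries (1.38 ± 0.37, and 0.92 ± 0.19 with the 18), and the receptor TIE1 had 0.76 ± 0.21 and 0.66 ± 0.18. TIE1 was not called against the high-share set. VEGFA, a vessel growth factor, was lower (-0.65 ± 0.19, and -0.73 ± 0.20 with the 18), but under the fold limit without NC replicate 1 (-0.54) or 10 (-0.50). PECAM1, a general endothelial marker, was not called (0.17 ± 0.10). Of 17 basement membrane genes 1 higher and 0 lower were called with all libraries. By NC set there were 0 and 0 against the low-share set and 1 and 0 against the high-share set. With the 18 there were 2 higher and 0 lower, and with the 27 there were 2 higher and 4 lower. HSPG2 was called higher with the 18 and lower with the 27. Of 15 smooth muscle and pericyte genes 1 higher and 0 lower were called with all libraries. By NC set there were 1 and 1 against the low-share set and 0 and 0 against the high-share set. With the 18 there were 3 higher and 0 lower, and with the 27 there were 1 higher and 5 lower. NOTCH3 was called higher with the 18 and lower with the 27.

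**Figure D4:**
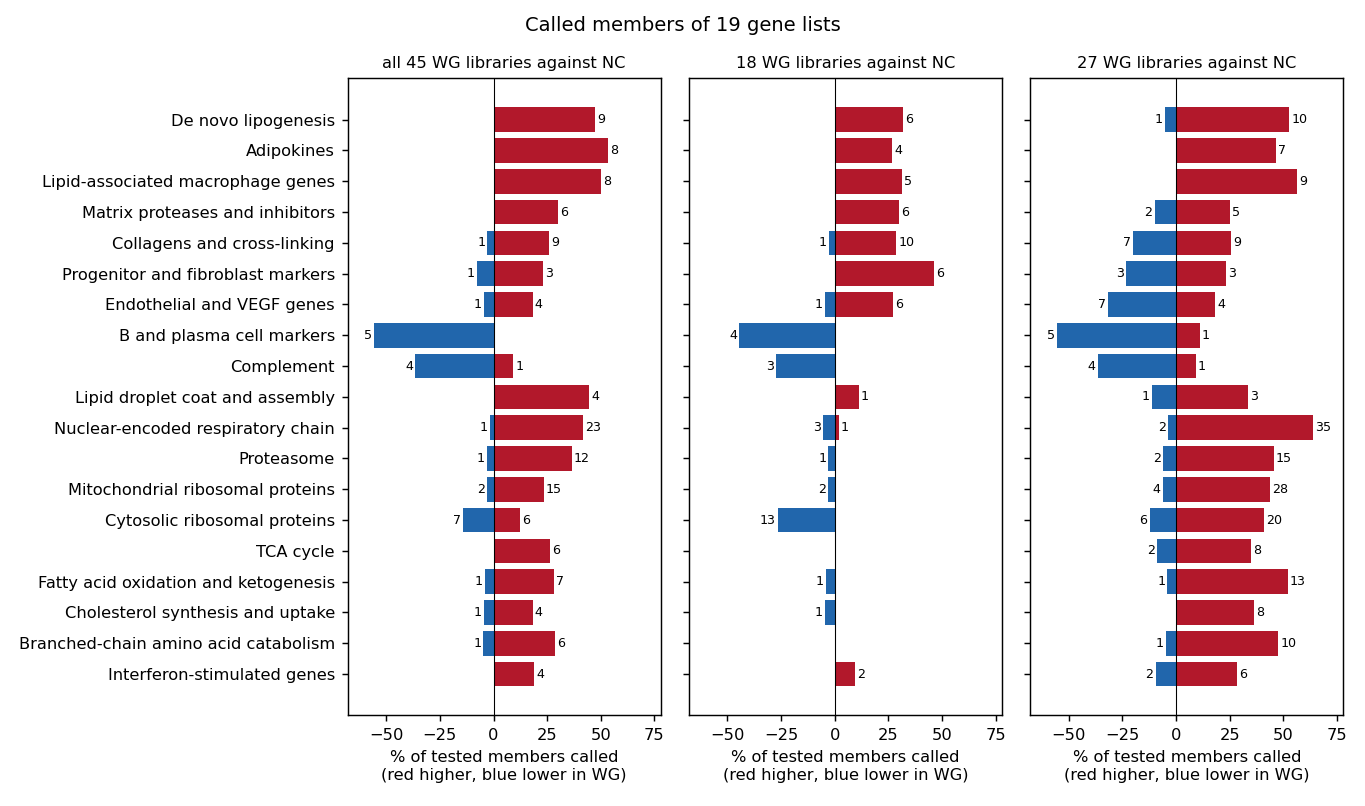
Bars show the share of tested members (%) of 19 gene lists called higher (to the right) or lower (to the left) in WG, with their numbers, for all 45, the 18 and the 27 WG libraries against NC. The respiratory chain, proteasome and mitochondrial ribosome lists have 23, 12 and 15 members higher with all WG libraries and 35, 15 and 28 with the 27, but 1, 0 and 0 with the 18.

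The lists of energy metabolism had no or 1 member called higher with the 18, where 3.57% of all genes were. Of 55 nuclear-encoded respiratory chain genes 23 higher and 1 lower were called with all libraries (median 0.54), 1 higher and 3 lower with the 18 (-0.04) and 35 higher and 2 lower with the 27 (0.84). By NC set there were 14 and 3 against the low-share set and 3 and 0 against the high-share set. UQCRC1, a core subunit of complex III, had medians of 31.4 TPM in NC, 52.5 TPM in the 18 and 117.9 TPM in the 27, with log2 fold changes of 1.32 ± 0.26, 0.37 ± 0.11 and 1.71 ± 0.14 for all, the 18 and the 27. NDUFS6, of complex I, had 1.37 ± 0.38, 0.16 ± 0.12 and 1.80 ± 0.30. Of the 13 mitochondria-encoded subunits 0 higher and 7 lower were called with all libraries, 0 and 4 against the low-share set and 0 and 1 against the high-share set, with a median of -1.66. The 18 and the 27 were divided on these genes, so their medians there, -0.44 and -4.87, are a description. ND1, of complex I, had medians of 383.9 TPM in NC and 19.5 TPM in WG, and all 45 WG libraries lay below every NC library. COX1, of complex IV, was not called (-0.19 ± 0.29), with medians of 14496.0 and 13905.5 TPM.

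Other lists of this kind followed. Of 33 proteasome genes 12 higher and 1 lower were called with all libraries, 9 and 1 against the low-share set and 0 and 0 against the high-share set, and 0 higher and 1 lower with the 18, and PSMB4 had medians of 87.8, 115.7 and 325.0 TPM in NC, the 18 and the 27. Of 64 mitochondrial ribosomal proteins 15 higher and 2 lower were called with all libraries, 10 and 4 against the low-share set and 2 and 0 against the high-share set, and 0 higher and 2 lower with the 18, with MRPL12 at 1.44 ± 0.38 and 0.25 ± 0.18. Of 49 cytosolic ribosomal proteins 6 higher and 7 lower were called with all libraries, 0 higher and 13 lower with the 18 and 20 higher and 6 lower with the 27, with 4 and 8 against the low-share set and 2 and 2 against the high-share set. The TCA cycle had 6 higher and 0 lower of 23 with all libraries against 0 and 0 with the 18, fatty acid oxidation 7 higher and 1 lower of 25 against 0 and 1, cholesterol synthesis 4 higher and 1 lower of 22 against 0 and 1, and branched-chain amino acid catabolism 6 higher and 1 lower of 21 against 0 and 0. Against the low-share set these lists had 3 and 1, 5 and 1, 4 and 1 and 4 and 0, and against the high-share set 0 and 0, 2 and 0, 2 and 0 and 0 and 0. PPARGC1A, the coactivator of mitochondrial biogenesis, was the fatty acid oxidation member called lower in both (-1.62 ± 0.42 and -1.13 ± 0.40). ESRRA, a nuclear receptor that works with it, had 2.09 ± 0.48 with all libraries and 0.34 ± 0.16 (not called) with the 18. Of 21 interferon-stimulated genes 4 higher and 0 lower were called with all libraries, 5 and 0 against the low-share set and 0 and 1 against the high-share set, and 2 higher and 0 lower with the 18, and IFI6 had 2.09 ± 0.48 and 0.34 ± 0.22 (not called). Their median log2 fold change was 0.35 against the low-share and -0.24 against the high-share NC set.

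Of 18 circadian clock genes 0 higher and 4 lower were called with all libraries. With the 18 there were 0 higher and 1 lower and with the 27 0 higher and 8 lower. But there were 0 and 0 against the low-share set and 0 and 0 against the high-share set. NR1D1, the clock repressor REV-ERB alpha, had medians of 14.2, 18 and 1.03 TPM in NC, the 18 and the 27, and a log2 fold change of -1.57 ± 0.54 with all libraries, which was -1.36 and not called without NC replicate 7. Of 21 heat shock genes 2 higher and 2 lower were called, 0 and 2 against the low-share set and 0 and 0 against the high-share set, and HSPH1, a chaperone, had -0.85 ± 0.26, but -0.58 without NC replicate 1 and -0.45 without NC replicate 5, not called in either. Of 26 immediate early genes 4 higher and 1 lower were called, 3 and 1 against the low-share set and 1 and 0 against the high-share set, and FOS and EGR1 were not (0.00 ± 0.26 and -0.80 ± 0.50), though EGR1 had medians of 75.3, 141.3 and 14.1 TPM in NC, the 18 and the 27. Of 13 genes of the IGF axis 5 higher and 1 lower were called, 5 and 1 against the low-share set and 1 and 1 against the high-share set. Hypoxia and glycolysis genes had 6 higher and 1 lower of 25 (5 and 1 against the low-share set and 0 and 0 against the high-share set), WNT ligands and inhibitors 4 and 2 of 16 (2 and 2 against the low-share set and 0 and 0 against the high-share set), and thermogenic and creatine genes 4 and 1 of 14 (3 and 1 against the low-share set and 0 and 1 against the high-share set). Calls were fewer among glucocorticoid targets, with 2 and 1 of 15, proliferation genes, with 1 and 1 of 23, and the unfolded protein response, with 1 and 1 of 23. Against the low-share set these had 2 and 0, 0 and 1 and 0 and 1, and against the high-share set 0 and 0, 0 and 0 and 0 and 0. STC2, a stanniocalcin that restrains IGF release, was called with all libraries and with the 18 (1.33 ± 0.25 and 1.19 ± 0.29). It was called against the low-share set and not against the high-share set.

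In the Hi-C data, the A-B index was higher in WG in many bins that lay in the same compartment in both groups. Of 113298 bins of 20 kb on the 18 autosomes, 2645 (2.33%) were A/B variables with a higher index in WG and 86 (0.0759%) with a lower one, by limma at an adjusted p below 0.05, with a difference above 0.75 and the same compartment in over 80% of the samples of each group. They covered 52.9 Mb in 1521 runs and 1.72 Mb in 50 runs. The whole index was shifted, by a median of 0.136 over all bins, and after quantile normalization, which removes such a shift, 902 bins were higher and 292 lower. Higher bins made up 6.6% of chromosome 1, 5.94% of chromosome 13 and 4.62% of chromosome 2, and 0.0% of chromosome 10, where the median difference was -0.272. B to A switches numbered 23 (0.0203%) and A to B switches 0. The share of bins in compartment A was 44.1% to 48.6% in NC (median 46.7%) and 44.1% to 49.5% in WG (median 48.5%), so the groups overlapped. With the NC samples numbered as the low-share RNA-seq libraries 1117 bins were higher and 145 lower, and with those numbered as the 2 high-share libraries 8579 and 29.

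The longest runs of higher index spanned 360 kb. At chr2:143260001-143620000, which holds the starts of HDAC3, DIAPH1, RNF14 and PCDH12 among others, the mean index was 2.69 in NC and 4.01 in WG. At chr1:254660001-255020000, with the starts of COL27A1, AMBP, AKNA and KIF12, it was 2.23 and 3.22. A run of 240 kb at chr13:196820001-197060000 held the cytokine receptor genes IFNAR1, IFNGR2 and IL10RB (3.71 and 4.80), and another at chr1:98420001-98660000 held SMAD7, an inhibitor of TGF-beta signalling (3.53 and 4.77). The longest run of lower index, 260 kb at chr6:45720001-45980000, held the zinc finger genes ZNF260, ZNF382, ZNF529, ZNF566 and ZNF567 (2.26 and 1.33). Each of these runs kept its direction after quantile normalization and with the NC samples of either number set. Quantile normalization over all bins does not remove a shift of a whole chromosome. The median difference was 0.222, 0.213 and 0.209 on chromosomes 1, 2 and 13, which hold the named runs of higher index.

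Of 576 tested genes that start in a bin of higher index, 90 (15.6%) were called higher and 33 (5.73%) lower, beside 13.1% and 8.59% of the 10488 tested genes with a start bin. With the 18 WG libraries the shares were 5.73% and 3.12% beside 3.79% and 5.09%. After quantile normalization 183 tested genes started in such a bin. With all WG libraries 22 (12.0%) of them were called higher and 12 (6.56%) lower, and with the 18, 11 (6.01%) and 4 (2.19%). With the deposited index the share called higher lay above that of all genes in both. Without the shift it lay below that of all genes with all WG libraries and above it with the 18. COL5A3 was among the 576, with an index of 2.79 ± 0.415 in the 9 NC samples and 3.68 ± 0.439 in the 46 WG samples (mean ± SD), a difference of 0.888 ± 0.159 (SE; adjusted p = 0.00023, limma). The mean index was 2.97 and 3.74 at ALDH1A3 and 2.03 and 3.15 at TIE1. PLIN2 and CIDEC had differences of 0.874 ± 0.236 and 0.812 ± 0.197. After quantile normalization the differences were 0.659 at COL5A3, 0.56 at ALDH1A3, 0.665 at PLIN2 and 0.601 at CIDEC, under the limit of 0.75, and 0.899 at TIE1. With the NC samples of low-share numbers ALDH1A3 (0.57), PLIN2 (0.689) and CIDEC (0.6) were also under it. RCAN1, an inhibitor of calcineurin, had an index difference of 0.915 ± 0.208 (0.72 after quantile normalization) and medians of 32.4 and 121.1 TPM, above every NC library in 42 of 45 WG libraries (1.68 ± 0.29, and 1.5 ± 0.29 with the 18). Its expression was called against the low-share NC set and not against the high-share set.

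The index was higher in WG at RAD54L (1.70 and 2.86), whose expression was called lower against the low-share NC set and not against the high-share set. It was also higher at TCF7 (3.43 and 4.24), with a difference of 0.611 after quantile normalization. TCF7 is a transcription factor of T cells and WNT signalling, and its level was lower with all libraries and not called against the high-share set (-1.53 ± 0.68 without WG replicate 35), with medians of 9.95 and 2.02 TPM (-1.84 ± 0.35, and -0.98 ± 0.19 with the 18). The start bin of KCNAB1 (chr13:95980001-96000000) was among the 23 switches, with 91.3% of WG samples in compartment A and mean indices of -0.366 and 0.349. Its expression, too, was called lower against the low-share set and not against the high-share set. LEP and SCD had index differences of 0.201 and 0.25 (adjusted p = 0.41 and 0.29, limma), which did not pass.

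**Figure D5:**
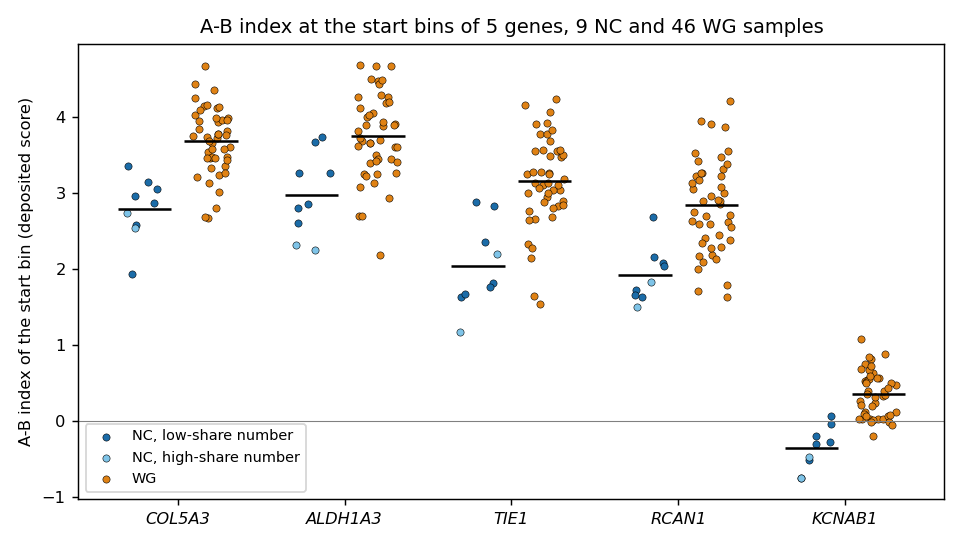
Points give the A-B index, a deposited score without unit, of the 20-kb bin that holds the start of each of 5 genes in 9 NC and 46 WG samples, with bars at the means and the NC samples with the numbers of the high-share libraries in light blue. The WG mean lies above the NC mean at all 5 genes, and at KCNAB1 the NC mean is below 0 and the WG mean above.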

How the data were processed

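RNA-seq (strand-specific, rRNA-depleted) and Hi-C were done by the authors on the same fat depot. The authors made the expected counts and TPM values deposited per gene with kallisto 0.43.0, and the deposited A-B index is a score per 20-kb bin made from contact maps in Sscrofa11.1. Among the deposited columns, 9 of counts and 9 of the index match no sample here and were not used. Expected counts were rounded and tested with the edgeR 4.0.16 quasi-likelihood test (R 4.3.3, TMM) over 14251 PCGs (limit 0.5 TPM, reached by 80% or more of either diet's libraries), and NC sets in a fit of 3 groups. The index was tested with limma 3.58.1, with Benjamini-Hochberg adjustment throughout. The tests were checked on simulated data that held no share sets, no division by mitochondria-encoded share and no shift of the whole index. That check therefore does not show how the tests behave under these features. PCG totals were 3337098 to 20910121 counts, so low genes are least precise in WG replicate 35, and replicates may share technical variation.

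Genes named were up to 12 in each direction with the lowest p that reached a mean of 5 TPM and passed against both NC sets, up to 4 called and 2 uncalled members of each of 43 lists, 35 chosen genes, and up to 8 called genes with the lowest p in changed bins. CD247 was named after its values were seen. The members and lists were chosen with earlier results of these data known. The divisions by mitochondria-encoded share, the fits without WG replicate 35, the low-share fit of both diets, the fit of shared numbers with no block and the naming of genes without WG replicate 35 were added after seeing the data. DESeq2 1.42.0, another scaling, other filters, left-out replicates and a replicate block were alternatives.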

Additional observations from a re-analysis of the deposited data

Results flagged for a closer look

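In 8 of 92 genes tested, a single NC library stood far from the other 8 by Dixon's criterion, which chance meets in about 1 in 20 groups. NC replicate 5 was lowest in the lipases LIPE (128.6 TPM beside 257.5 to 437.0 TPM in the others) and PNPLA2 (107.4 TPM beside 152.9 to 203.6 TPM) and in PPARG (75.0 TPM beside 138.2 to 215.8 TPM). NC replicate 7 was highest in SPP1 (318.2 TPM beside 45.9 to 120.1 TPM) and in ATP6V0D2 (1.58 TPM beside 0.0 to 0.554 TPM). NC replicate 2 was highest in LPL (2149.4 TPM beside 692.5 to 1127.1 TPM) and NC replicate 8 in TREM2 (21.3 TPM beside 2.95 to 8.31 TPM). NC replicate 10, of the high-share set, was at 0.0 TPM for TNFRSF17 beside 3.04 to 11.6 TPM.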

How the results depend on the processing

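Beside 1741 genes higher and 2071 lower, the 18 WG libraries gave 509 and 1312, the 27 gave 2829 and 3620, the high-share NC libraries alone 0 and 10 (2788 genes at an unadjusted p under 0.05), high-share libraries of both diets 166 and 215, and low-share libraries of both diets 1078 lower. The 18 against low-share NC libraries gave 579 and 1360, against high-share NC libraries 5 and 28, and with the share set as a term 3 and 39. With no filter 3963 were lower, and above 2 TPM 1123. Against the low-share set, 500 were higher with the 18, and 3716 lower with no filter and 892 above 2 TPM. Against the high-share set, beside 1 higher and 32 lower, the counts were 414 and 374 without WG replicate 35, 22 and 204 by the exact test, 328 and 125 by DESeq2 and 2 and 50 with no filter, with 3 higher by RLE scaling, 2 above 2 TPM and 3 with the 18. Leaving out each NC replicate gave 1533 to 1856 higher and 1859 to 2057 lower, 944 to 1414 and 1536 to 1763 against the low-share set, and 0 to 2 and 0 to 34 against the high-share set, where without replicate 6 the counts were 0 and 0.

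The replicate numbers did not pair the libraries, since same-numbered NC and WG libraries correlated over 0.1 in 2 of 9 pairs and Hi-C samples in 1 of 9, and 2 of the 9 libraries correlated best with their own number. With the replicate block 140 genes were higher and 658 lower, and the same libraries without it gave 301 and 735. The A/B variables numbered 0 and 0 with the block (limma) and 2 and 0 without, and the A to B switches 1 in each.

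Beside 2645 bins higher and 86 lower, quantile normalization gave 902 and 292 with 5 A to B switches, and a difference limit of 0.5 gave 7963 and 332. NC samples with low-share numbers gave 1117 and 145, with 44 B to A and 6 A to B switches, and those with high-share numbers 8579 and 29, with 1110 and 23. With compartments set at 70% of samples the switches were 237 and 8. Leaving out each NC sample gave 1946 to 3561 and 80 to 142 bins, and 25 to 71 and 0 to 1 switches. The cause of these shifts was not tested.

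Of the 92 genes named, 8 turned sign in at least 1 alternative while called with all libraries or in that alternative. Sign changes of genes called in neither, such as COL1A1 with the 18, were not counted. With high-share NC libraries only, high-share libraries of both diets, the 18 against high-share NC libraries, and the 18 with the share set as a term, the log2 fold changes were 1.34, 1.37, 0.37 and 0.37 for COX7A1, 0.84, 0.87, 0.82 and 0.82 for IL1A, 0.26, 0.28, 0.59 and 0.59 for RAD54L and 0.18, 0.24, 0.19 and 0.19 for KCNAB1. PSMB4 was -0.01 with the 18 and -0.13 with the 18 against low-share NC libraries, COX1 was 0.84 in the latter, CD247 -0.62 with the 18 and VEGFA 0.01 with low-share libraries of both diets. Against the 2 high-share NC libraries, differences may not have been detectable, in genes of low count and in abundant ones. LEP, for example, was not called there at a log2 fold change of 2.57 ± 0.73 with every library kept.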
